A study of Homo sapiens with 12 samples.

Results

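The genes that build, interconvert and recycle nucleotides were followed in Jurkat and Molt-4, established human lines of T-cell acute lymphoblastic leukaemia (T-ALL), grown with or without chidamide. They were taken by symbol from a list of 32 enzymes of purine and pyrimidine synthesis, ribonucleotide reduction and salvage, and 31 of the 32 had a row among the 25146 genes of the expression table. UCK2 was not analysed here. By role the 31 fall into 8 genes of purine synthesis, 5 that turn IMP into AMP and GMP, 7 of pyrimidine synthesis, 7 of deoxynucleotide and thymidylate synthesis and 4 of salvage. The rule used symbols and no measured value, but the list was chosen with earlier results of these data known.

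Cells obtain nucleotides by building the purine and pyrimidine rings from small precursors, which is the de novo route, or by salvage, in which free bases and nucleosides are coupled back to a sugar phosphate. Phosphoribosyl pyrophosphate (PRPP) feeds both routes, and ribonucleotide reductase turns ribonucleotides into the deoxyribonucleotides used for DNA. Leukaemic lymphoblasts depend heavily on these routes, and several of the enzymes are targets of drugs used against leukaemia, among them ribonucleotide reductase. Many of the genes are known targets of the transcription factors MYC and E2F.

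Chidamide (tucidinostat) is a benzamide inhibitor of class I histone deacetylases. Each line was sampled untreated and after 2 µM chidamide, giving 4 groups with 3 RNA sequencing libraries in each. The protocol states 48 h of treatment, but the individual labels of the treated libraries read 48, 49 and 50 h, so time and replicate number cannot be told apart. Library names begin with J or M, taken to stand for Jurkat and Molt-4, the lines of the growth protocol. Separate cultures behind the 3 libraries of a group are not stated in the labels, so the p-values reflect the spread among these libraries, which may be technical. The title names NOTCH1 and MYC. NOTCH1 fell from 20.8 ± 2.72 to 14 ± 0.595 FPKM (mean ± SD, n = 3) in Jurkat and from 77.3 ± 3.72 to 17.2 ± 0.796 in Molt-4. MYC fell from 259.7 ± 34.2 to 164 ± 2.48 in Jurkat and from 231 ± 11 to 195 ± 1.33 in Molt-4.

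Levels are FPKM, fragment numbers scaled for transcript length and for the fragments mapped in the library, as the authors deposited them, so levels of different genes are per length. FPKM holds no read counts, which leaves the depth unknown and allows no counting interval. A change is the difference of the group means of log2(FPKM + 1), given with its standard error (SE) from a limma model over 13840 genes whose FPKM was 1 or more in 3 or more of the 12 libraries. It counts as called, and the gene as having risen or fallen, at a Benjamini-Hochberg adjusted p under 0.05 over all 13840 genes, and on this scale the change of a gene with low values is understated. All 31 genes passed the filter, CTPS2 and SAMHD1 only through Molt-4. RNA came from whole cultures, where fewer cells of a type and less RNA per cell cannot be told apart.

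Total FPKM per library ranged from 698435 to 869059. Untreated Jurkat replicate 3 stood apart: the nucleotide genes were by median 0.15 and 0.18 lower in it (log2) than in replicates 1 and 2, while no other pair within a group differed by more than 0.023. Untreated Molt-4 replicate 3 had the highest total, and 7SL RNA made up 10.1% of it, against 2.25% to 5.35% in the other libraries. All 11 T-lineage markers were at an FPKM of at least 1 in every group. They summed to 2434 to 2514 in untreated and 1629 to 1695 in treated Jurkat, where 7 fell and 3 rose, and to 1123 to 1187 and 1042 to 1059 in Molt-4, where 5 fell and 5 rose, and all 11 were lower in untreated Molt-4 than in untreated Jurkat. The 8 erythroid markers summed to 7.03 to 9.81 FPKM in untreated and 16.1 to 88.8 in treated Jurkat, but to 9366 to 10067 in untreated and 20544 to 21037 in treated Molt-4, and HBG1 was at 0 in Jurkat. The 5 epithelial markers summed to 108 to 114 in untreated and 277 to 284 in treated Molt-4, with at most 1.88 in Jurkat, and the 7 myeloid markers to 11.3 to 12.1 and 89.5 to 91.1 in Molt-4, with at most 4.73 in Jurkat. The 6 B-cell markers summed to 35.4 to 43.9 in untreated and 16.2 to 19.1 in treated Jurkat and to 3.86 to 6.02 and 18.9 to 23.8 in Molt-4, most of it CD79A, with MS4A1 and PAX5 at or near 0. The 6 fibroblast and endothelial markers summed to 76.2 to 86.4 and 82.3 to 86.3 in Jurkat and to 16.2 to 22.1 and 64.2 to 70.9 in Molt-4, most of it PECAM1 and, in treated cells, COL1A1, with DCN and CDH5 at or near 0. The part of these markers in the results was not tested, and the identity and purity of the cultures were not verified.

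The promoters of 28 of the 31 genes were found by symbol in RefSeq (build GRCh38.p14, from 250 bases before to 50 bases after the start of transcription), and ADSL, ADSS and IMPDH2 were not matched. They are shown for the binding words of the factors named above: the E-box CACGTG, which reads the same on both strands and is bound by MYC with its partner MAX, and the E2F words TTTGGCG and TTTCCCG, searched on both strands. At least 1 window held CACGTG in 7 of the 28 genes (25.0%), namely PPAT, PAICS, ATIC, DHODH, DCTPP1, NME1 and DCK, against 8.77% of 27305 genes with a window and 12.5% of the 10270 tested genes with one. An E2F word stood in 9 of 28 (32.1%), namely GART, GMPS, UMPS, TYMS, DTYMK, PRPS2, DCK, HPRT1 and DUT, against 7.30% and 11.5%. Genes differ in their number of windows, which these shares do not allow for, and more windows leave more room for a match. PAICS, GART and DUT held their word in only 1 of several windows. A match is a description of letters in the window and not a binding site. PFAS, CAD and CTPS1 fell in both lines and held neither word in any window. DHODH, DCK and HPRT1 held a word but were not called in Molt-4. The following 5 windows belong to genes that fell in both lines and are written 5′ to 3′, with the words in capitals, and none of these words overlaps another.
PAICS, chr4:56435502-56435801, plus strand: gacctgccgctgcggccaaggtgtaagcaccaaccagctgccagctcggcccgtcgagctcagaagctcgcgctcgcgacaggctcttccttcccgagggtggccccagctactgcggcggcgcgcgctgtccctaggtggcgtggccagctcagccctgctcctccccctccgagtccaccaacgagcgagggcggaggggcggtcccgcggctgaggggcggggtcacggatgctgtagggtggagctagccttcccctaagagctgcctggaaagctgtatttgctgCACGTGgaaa
ATIC, chr2:215311809-215312108, plus strand: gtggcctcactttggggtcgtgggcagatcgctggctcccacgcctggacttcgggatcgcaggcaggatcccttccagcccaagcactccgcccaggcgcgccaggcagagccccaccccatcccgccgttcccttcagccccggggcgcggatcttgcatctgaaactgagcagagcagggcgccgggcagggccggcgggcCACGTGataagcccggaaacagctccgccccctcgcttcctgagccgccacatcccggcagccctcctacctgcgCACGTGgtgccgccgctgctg
NME1, chr17:51153309-51153608, plus strand: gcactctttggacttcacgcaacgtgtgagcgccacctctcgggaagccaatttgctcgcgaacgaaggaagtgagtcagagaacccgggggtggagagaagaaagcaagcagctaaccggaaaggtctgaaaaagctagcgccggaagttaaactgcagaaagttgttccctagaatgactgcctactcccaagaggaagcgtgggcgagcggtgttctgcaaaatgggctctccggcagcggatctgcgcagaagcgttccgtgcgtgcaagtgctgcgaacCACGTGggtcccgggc
TYMS, chr18:657403-657702, plus strand: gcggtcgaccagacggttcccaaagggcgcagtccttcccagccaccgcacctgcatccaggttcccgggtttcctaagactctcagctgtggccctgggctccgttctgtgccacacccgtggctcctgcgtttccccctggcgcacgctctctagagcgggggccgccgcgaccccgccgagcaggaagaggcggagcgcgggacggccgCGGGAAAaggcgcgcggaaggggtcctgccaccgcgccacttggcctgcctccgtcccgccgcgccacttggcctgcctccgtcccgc
DTYMK, chr2:241686766-241687065, minus strand: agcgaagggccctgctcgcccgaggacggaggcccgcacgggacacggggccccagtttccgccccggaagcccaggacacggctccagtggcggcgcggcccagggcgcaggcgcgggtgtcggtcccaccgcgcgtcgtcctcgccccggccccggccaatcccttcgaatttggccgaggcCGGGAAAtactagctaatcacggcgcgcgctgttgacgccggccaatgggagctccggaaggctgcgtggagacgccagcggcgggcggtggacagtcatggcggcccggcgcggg
In the PAICS window shown, the E-box begins 41 bases after the start, at chr4:56435792-56435797, and the other windows of PAICS held neither word. The same 6 bases lie 182 bases before the start of PPAT, which is transcribed in the opposite direction (window chr4:56435566-56435865, minus strand). ATIC holds 2 E-boxes, at positions -46 and 30 from its start, and that of NME1 lies at 35. The E2F words of TYMS and DTYMK lie at -38 and -66.

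In Jurkat, most of the nucleotide genes were lower after chidamide. Of the 31 genes 26 fell and 1, TK1, rose, while CTPS2, RRM2, DCTPP1 and SAMHD1 were not called. Over all genes tested, 25.4% fell and 30.9% rose. Rises made up 54.9% of these calls, 47.1% after quantile normalization and 62.4% with totals made equal without 7SL RNA, under which 24 and 25 of the nucleotide genes were called lower. The median change of the 31 was -0.62 on the log2(FPKM + 1) scale, against 0.04 over all genes. Fitted without the Molt-4 libraries, 24 were called lower and 1 higher, with DCK and DHODH no longer called. Without untreated replicate 3 the median was -0.70, again with 26 called lower, since DCTPP1 was then called and DCK was not (change of DCK -0.13, adjusted p = 0.0599).

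Most of the nucleotide genes were also lower after chidamide in Molt-4. There 24 of 31 fell and 2, TK1 and SAMHD1, rose, while IMPDH1, DHODH, PRPS1, DCK and HPRT1 were not called. Fitted without the Jurkat libraries, DHODH and DCK were called lower as well, and no call was lost. Over all genes 24.6% fell and 35.4% rose, and the median change was -0.41 for the nucleotide genes and 0.08 for all genes. The direction of calls over all genes depended on the scaling here too: 59.0% of them were rises as deposited and 41.3% after quantile normalization, which lowered the median of all genes by 0.17 and left that of the nucleotide genes at -0.39.

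A total of 21 genes fell in both lines, which is 80.8% of the 26 in Jurkat and 87.5% of the 24 in Molt-4. Among all genes 16.2% fell in both lines, 64.1% of those lower in Jurkat and 66.1% of those lower in Molt-4. TK1 was the 1 gene that rose in both, and no gene rose in one line and fell in the other. Across the 31 genes the changes in the 2 lines, which share no library, had a Pearson r of 0.70 and a Spearman rho of 0.61, as a description over genes that are not independent, and r over all genes was 0.64. The change was the lower in Jurkat for 23 of the 31.

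**Figure D1:**
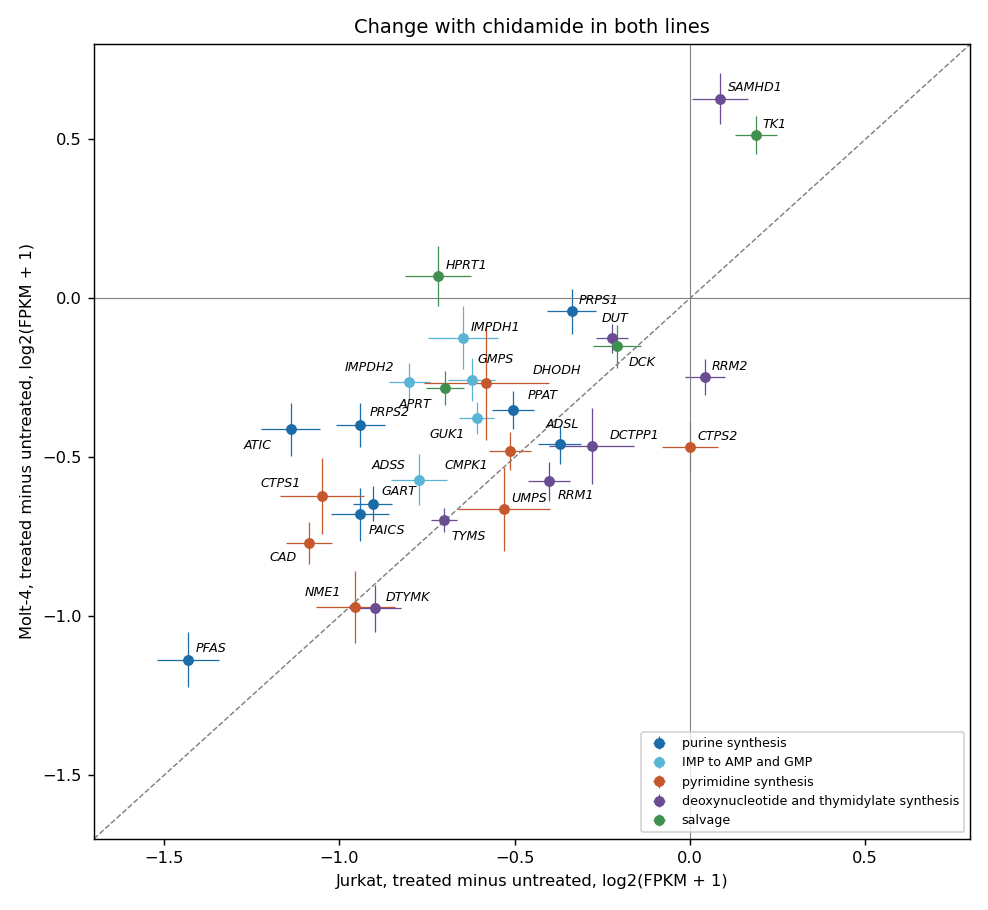
Log2 change with chidamide in Jurkat (x axis) against Molt-4 (y axis) on the log2(FPKM + 1) scale for the 31 genes, coloured by role, with bars of 1 SE and a dashed line where both changes are equal. Most points lie in the lower left, and 23 of 31 lie above the dashed line, where the change in Jurkat is the lower; HPRT1 and ATIC are farthest above it and TK1 is the 1 gene called higher in both lines.

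Summed over the 31 genes, FPKM ranged from 3643 to 4117 in the untreated Jurkat libraries and from 2486 to 2538 in the treated ones. In Molt-4 the sums were 3554 to 3651 and 2619 to 2639. As a share of total FPKM this was 0.528% and 0.355% in Jurkat and 0.451% and 0.337% in Molt-4 (means of 3 libraries). The sums of the untreated libraries lay above those of the treated ones in both lines, with untreated Jurkat replicate 3 the lowest of its group.

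**Figure D2:**
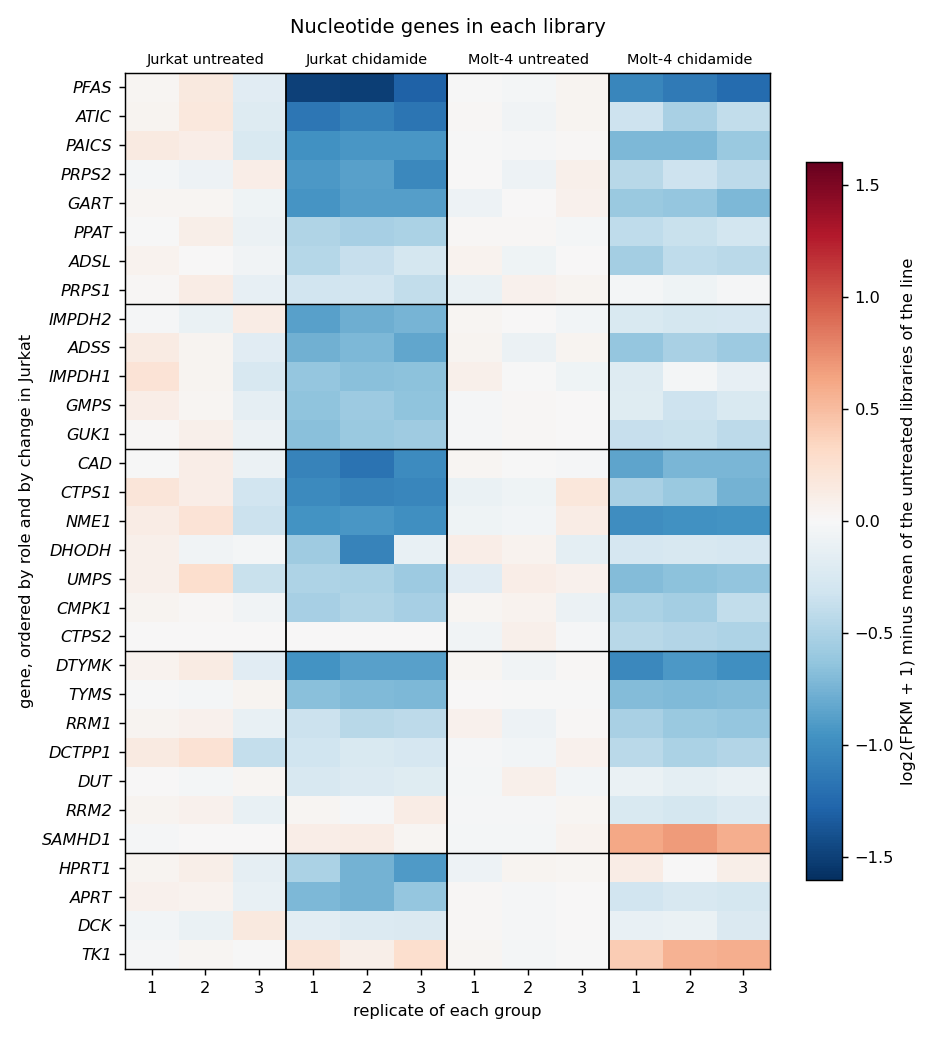
Each of the 31 genes (rows, by role) in each of the 12 libraries (columns), as log2(FPKM + 1) minus the mean of the untreated libraries of its line. The treated libraries are lower for most genes in both lines, TK1 is higher in treated libraries of both, and SAMHD1 is higher in treated Molt-4.

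All 8 genes of purine synthesis fell in Jurkat (median change -0.92) and 7 of 8 in Molt-4 (median -0.44), PRPS1 being the exception. Their summed FPKM was 905 ± 74.9 in untreated and 496 ± 8.84 in treated Jurkat, and 761 ± 16.5 and 523 ± 6.87 in Molt-4. PFAS, which makes formylglycinamidine ribonucleotide, changed the most of these in both lines. Its FPKM was 98.4, 107 and 84.7 in untreated and 33.5, 33.3 and 38.6 in treated Jurkat, and 58.5, 57.3 and 60.6 in untreated and 28, 26.2 and 24.5 in treated Molt-4. Treated libraries did not overlap the untreated ones in either line, and the change was -1.43 ± 0.087 (adjusted p = 6.99e-08) in Jurkat and -1.14 ± 0.087 (adjusted p = 3.67e-07) in Molt-4. Treated cells had 36.3% of the untreated mean FPKM in Jurkat and 44.6% in Molt-4.

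ATIC, the enzyme that closes the ring to IMP at the end of the pathway, differed between the lines. Its FPKM was 165, 179.9 and 139 in untreated Jurkat and 71, 75 and 70.6 in treated Jurkat, a change of -1.14 ± 0.084 (adjusted p = 3.25e-07). In Molt-4 it was 126, 119 and 128 without and 98.7, 86.9 and 94.6 with the drug, a change of -0.41 ± 0.084 (adjusted p = 0.00108). The groups did not overlap in either line, and 44.8% of the untreated mean was left in Jurkat against 75.0% in Molt-4. GART, which catalyses several early steps, stood at 102, 103 and 95.9 in untreated and 51.5, 53.9 and 54 in treated Jurkat, and 109, 116 and 121 in untreated and 75.9, 74.8 and 69.5 in treated Molt-4. It fell by 0.90 ± 0.055 in Jurkat (adjusted p = 7.33e-08) and by 0.65 ± 0.055 in Molt-4 (adjusted p = 9.64e-07), with no overlap. PAICS, which carries out carboxylation and the following ligation, was the most abundant of the purine genes, with an FPKM of 270.0, 264 and 207 in untreated and 125, 128 and 128 in treated Jurkat, and 229, 228 and 234 in untreated and 139, 139 and 152 in treated Molt-4. The changes were -0.94 ± 0.084 (adjusted p = 1.61e-06) and -0.68 ± 0.084 (adjusted p = 2.15e-05), and the spread in untreated Jurkat came from replicate 3, which was at 207.

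PRPS1 and PRPS2 encode PRPP synthetases, and the pair did not change in proportion. PRPS2 had an FPKM of 83.1, 80.4 and 91.6 in untreated and 44.3, 46.2 and 41 in treated Jurkat, and 33.1, 31 and 34.9 in untreated and 23.9, 26 and 24.4 in treated Molt-4. It fell by 0.94 ± 0.070 in Jurkat (adjusted p = 3.68e-07) and by 0.40 ± 0.070 in Molt-4 (adjusted p = 0.000387). For PRPS1 the values were 69, 74.5 and 62.1 in untreated and 55.1, 55 and 51.6 in treated Jurkat, and 59.8, 67.3 and 66.4 in untreated and 62.9, 61.3 and 63.6 in treated Molt-4. It fell by 0.34 ± 0.069 in Jurkat (adjusted p = 0.00127) with no overlap, while in Molt-4 the groups overlapped and the change was -0.04 ± 0.069 (adjusted p = 0.629). PRPS2 made up 55.4 ± 3.88% of the FPKM of the pair in untreated and 44.8 ± 0.747% in treated Jurkat, and 33.9 ± 2.11% and 28.4 ± 1.25% in Molt-4, and these shares did not overlap within a line.

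PPAT, the committing amidotransferase of the pathway, had an FPKM of 29, 31 and 27.3 in untreated and 20.6, 19.8 and 20.1 in treated Jurkat, and 28.2, 28.2 and 27.2 in untreated and 20.9, 21.6 and 22.5 in treated Molt-4. It fell by 0.50 ± 0.061 in Jurkat (adjusted p = 2.18e-05) and by 0.35 ± 0.061 in Molt-4 (adjusted p = 0.000354), and no treated library reached an untreated one. ADSL, which acts in this pathway and again in AMP synthesis, had mean FPKM of 117 ± 4.85 and 90.6 ± 5.9 in Jurkat and 106 ± 4.68 and 77.2 ± 3.79 in Molt-4. It was the 1 purine synthesis gene with the lower change in Molt-4, at -0.46 ± 0.061 (adjusted p = 4.27e-05) against -0.37 ± 0.061 (adjusted p = 0.00026) in Jurkat, and the difference between the lines was not called (adjusted p = 0.484).

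The 5 genes that lead from IMP to AMP and GMP all fell in Jurkat (median -0.65), and 4 of them fell in Molt-4 (median -0.26). IMPDH2, the main IMP dehydrogenase of proliferating lymphocytes and the entry to GMP, had an FPKM of 232, 217 and 255 in untreated and 127, 136 and 139 in treated Jurkat, and 237, 232 and 225 in untreated and 196, 190.0 and 192 in treated Molt-4. It fell by 0.80 ± 0.059 in Jurkat (adjusted p = 3.16e-07) and by 0.26 ± 0.059 in Molt-4 (adjusted p = 0.00206), without overlap. The Molt-4 call was lost after quantile normalization (-0.19, adjusted p = 0.0519). Its paralogue IMPDH1 stood at 93.5, 82.8 and 66.8 in untreated and 51.8, 50.2 and 50.6 in treated Jurkat, and 69.8, 65.3 and 62.5 in untreated and 56.9, 64.2 and 59.9 in treated Molt-4. Treated Jurkat libraries were all lower than untreated ones (-0.65 ± 0.099, adjusted p = 0.000143), whereas the Molt-4 groups overlapped (-0.12 ± 0.099, adjusted p = 0.3). IMPDH2 made up 74.3 ± 4.32% of the pair in untreated and 72.5 ± 1.19% in treated Jurkat, and 77.9 ± 0.537% and 76.2 ± 1.39% in Molt-4, with overlap in both lines.

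GMPS, which aminates XMP to GMP, had an FPKM of 54.1, 51.3 and 45.2 in untreated and 31.8, 33.1 and 31.6 in treated Jurkat, and 60.1, 61.8 and 61 in untreated and 53.2, 48.1 and 51.5 in treated Molt-4. The changes were -0.62 ± 0.067 (adjusted p = 7.81e-06) in Jurkat and -0.26 ± 0.067 (adjusted p = 0.00565) in Molt-4. ADSS, the first enzyme towards AMP, was at 41.8, 39.3 and 33.5 in untreated and 21.9, 22.7 and 20.9 in treated Jurkat, and 35.8, 32.4 and 35.6 in untreated and 22.1, 23.9 and 22.8 in treated Molt-4. It fell by 0.77 ± 0.080 (adjusted p = 5.9e-06) and by 0.57 ± 0.080 (adjusted p = 6.54e-05) in the 2 lines. GUK1, the kinase that phosphorylates GMP, was the most abundant of all 31 in untreated Jurkat, with an FPKM of 491, 513 and 453 in untreated and 305, 321 and 327 in treated Jurkat, and 262, 269 and 267 in untreated and 207, 208 and 199 in treated Molt-4. It fell by 0.61 ± 0.051 in Jurkat (adjusted p = 9.11e-07) and by 0.38 ± 0.051 in Molt-4 (adjusted p = 4.36e-05). For GMPS, ADSS and GUK1 the treated libraries lay below all untreated libraries of the same line.

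Of 7 pyrimidine synthesis genes 6 fell in Jurkat (median -0.58), CTPS2 being listed at 0 there, and 6 fell in Molt-4 (median -0.62), where DHODH was not called. CAD, which carries the opening steps of the route on a single protein, had an FPKM of 73.2, 78.9 and 68.8 in untreated and 34.5, 31.7 and 36.2 in treated Jurkat, and 61.5, 59.9 and 59.8 in untreated and 33.1, 36.1 and 35.9 in treated Molt-4. It fell by 1.09 ± 0.066 in Jurkat (adjusted p = 6.98e-08) and by 0.77 ± 0.066 in Molt-4 (adjusted p = 9.73e-07), and the groups did not overlap. DHODH, the mitochondrial dehydrogenase of the route, was the least even: its FPKM was 14.6, 13.3 and 13.5 in untreated and 9.0, 6.08 and 12.6 in treated Jurkat, and 13.1, 12.6 and 10.7 in untreated and 9.83, 10 and 9.84 in treated Molt-4. In Jurkat it fell by 0.58 ± 0.18 (adjusted p = 0.0148), a value that was -0.34 without treated replicate 2, the lowest library. In Molt-4 the change was -0.27 ± 0.18 (adjusted p = 0.22), although no treated library reached an untreated one. The shared spread includes treated Jurkat, with an SD of 3.29 FPKM against 0.101 in treated Molt-4. Fitted without the Jurkat libraries, the fall of DHODH in Molt-4 was called (adjusted p = 0.0349).

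UMPS, which completes UMP, stood at 33.5, 38.3 and 24.4 in untreated and 22.1, 21.8 and 20.7 in treated Jurkat, and 27.7, 34 and 33 in untreated and 19, 19.6 and 19.9 in treated Molt-4. It fell by 0.53 ± 0.13 in Jurkat (adjusted p = 0.00451) and by 0.66 ± 0.13 in Molt-4 (adjusted p = 0.000953), again without overlap. CTPS1, the CTP synthase that activated T cells depend on, was at 103, 96.5 and 72 in untreated and 43.4, 41.9 and 42.7 in treated Jurkat, and 62.2, 63.9 and 76.5 in untreated and 46.5, 44.2 and 39.5 in treated Molt-4. The changes were -1.05 ± 0.12 (adjusted p = 1.31e-05) and -0.62 ± 0.12 (adjusted p = 0.000745), and 47.2% of the untreated mean was left in Jurkat against 64.3% in Molt-4. CTPS2, its paralogue, was listed at 0 in all 6 Jurkat libraries. In Molt-4 its FPKM was 4.19, 4.71 and 4.36 without and 2.99, 2.92 and 2.83 with the drug, a change of -0.47 ± 0.079 (adjusted p = 0.000269). CTPS2 contributed 6.19 ± 0.747% of the FPKM of the pair in untreated and 6.30 ± 0.339% in treated Molt-4, with overlap. After quantile normalization its change in Molt-4 was -1.10.

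NME1, a nucleoside diphosphate kinase that makes triphosphates, and CMPK1, which phosphorylates UMP and CMP, had changes of close size in the 2 lines. NME1 had an FPKM of 367, 394 and 266 in untreated and 173, 177 and 170.2 in treated Jurkat, and 427, 431 and 483 in untreated and 223, 228 and 230.4 in treated Molt-4. It fell by 0.96 ± 0.11 in Jurkat (adjusted p = 1.69e-05) and by 0.97 ± 0.11 in Molt-4 (adjusted p = 1.28e-05), to 50.7% and 50.8% of the untreated mean. The difference of these changes was -0.02 ± 0.16 (adjusted p = 0.952). CMPK1 was at 49.2, 48.1 and 45.5 in untreated and 32.8, 33.7 and 32.6 in treated Jurkat, and 81.6, 83.5 and 74.9 in untreated and 55.9, 54.6 and 60.7 in treated Molt-4, and fell by 0.51 ± 0.060 (adjusted p = 1.47e-05) and 0.48 ± 0.060 (adjusted p = 2.32e-05), with no overlap. NME1 shares exon sequence on the same strand with the read-through transcript NME1-NME2, which was at 22.5 ± 1.46 and 14.7 ± 0.624 FPKM in Jurkat and 30.9 ± 2.69 and 31.2 ± 2.56 in Molt-4, so the split of reads between them is uncertain. Close copies such as NME2 or the paralogue pairs can share reads as well.

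**Figure D3:**
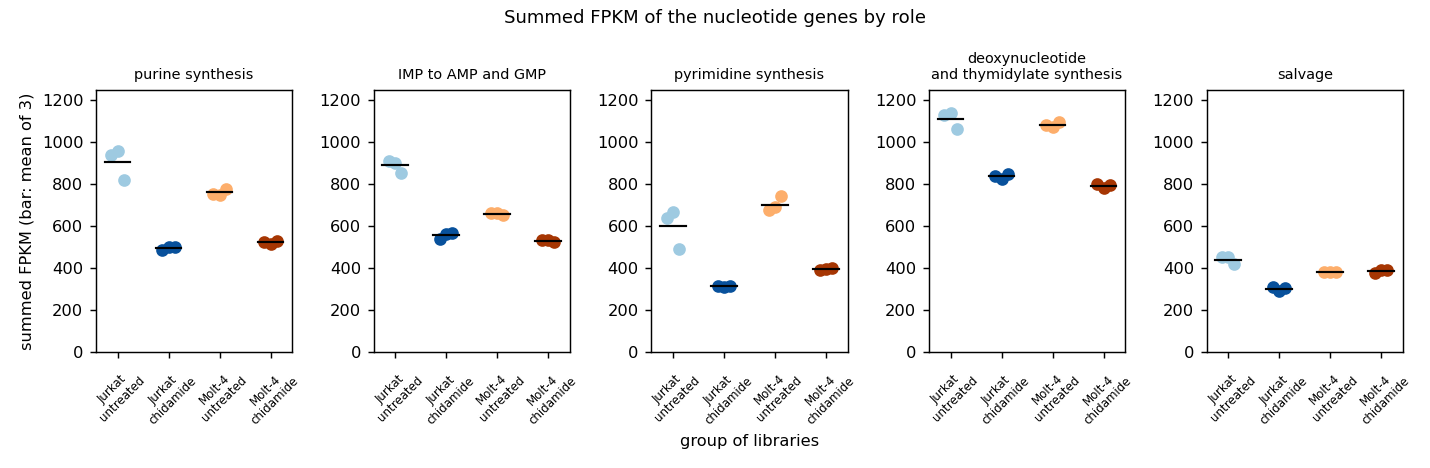
Summed FPKM of the genes of each role in every library, with 1 point per library and a bar at the mean of the 3 libraries of a group. Purine, IMP-branch, pyrimidine and deoxynucleotide sums are lower in the treated groups of both lines, while the salvage sum is lower in treated Jurkat (302 ± 9.89 against 441 ± 19.6) and overlaps in Molt-4 (385 ± 7.38 against 383 ± 1.91).

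The 7 genes of deoxynucleotide and thymidylate synthesis changed less and less evenly in Jurkat, with 4 lower, 3 not called and a median of -0.28. In Molt-4 6 fell and 1 rose (median -0.46). TYMS, thymidylate synthase, which methylates dUMP to dTMP, had an FPKM of 424, 415 and 438 in untreated and 267, 259.6 and 258 in treated Jurkat, and 244, 243 and 243 in untreated and 149.9, 149 and 149.8 in treated Molt-4. It fell by 0.70 ± 0.037 in both lines (adjusted p = 2.14e-08 in Jurkat and 1.52e-08 in Molt-4), to 61.4% and 61.5% of the untreated mean. DTYMK, which phosphorylates dTMP, was at 81.7, 85.6 and 68.9 in untreated and 39.9, 42.4 and 42.6 in treated Jurkat, and 114, 108 and 114 in untreated and 54.3, 59.1 and 56.6 in treated Molt-4. The changes were -0.90 ± 0.074 (adjusted p = 8.4e-07) and -0.98 ± 0.074 (adjusted p = 3.2e-07). For TYMS and DTYMK no treated library reached an untreated one, and the difference between the lines was 0.00 ± 0.053 (adjusted p = 0.965) and -0.08 ± 0.10 (adjusted p = 0.614).

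RRM1 and RRM2 encode the large and small subunits of ribonucleotide reductase and parted in Jurkat. RRM1 had an FPKM of 139, 142 and 125 in untreated and 107, 98.9 and 100.4 in treated Jurkat, and 166, 150.3 and 161 in untreated and 111, 105 and 103 in treated Molt-4. It fell by 0.40 ± 0.061 in Jurkat (adjusted p = 0.000129) and by 0.58 ± 0.061 in Molt-4 (adjusted p = 5.78e-06). RRM2 stood at 208, 213 and 186 in untreated and 206, 199 and 220.2 in treated Jurkat, and 248, 248 and 257 in untreated and 211, 207 and 216 in treated Molt-4. Its Jurkat groups overlapped and the change was 0.04 ± 0.057 (adjusted p = 0.553), while in Molt-4 it fell by 0.25 ± 0.057 (adjusted p = 0.00244) without overlap. After quantile normalization the Jurkat change of RRM2 was 0.17 and was called (adjusted p = 0.00505). The share of RRM2 in the FPKM of the pair went from 60.0 ± 0.0803% to 67.1 ± 1.42% in Jurkat and from 61.2 ± 1.23% to 66.5 ± 1.04% in Molt-4, and was higher in every treated library than in the untreated ones of its line.

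DUT, which hydrolyses dUTP, had mean FPKM of 156 ± 3.63 and 134 ± 2.57 in Jurkat and 182 ± 9.2 and 166 ± 2.58 in Molt-4, with small changes of -0.22 ± 0.046 (adjusted p = 0.00127) and -0.13 ± 0.046 (adjusted p = 0.0309). The Jurkat value was no longer called after quantile normalization (-0.12, adjusted p = 0.103), and in Molt-4 the call was also lost without untreated replicate 2 (-0.085, adjusted p = 0.142) and without each treated replicate in turn (adjusted p of 0.0509, 0.0932 and 0.0641), after quantile normalization (-0.066, adjusted p = 0.338) and with totals made equal without 7SL RNA (adjusted p = 0.0632). DCTPP1, which hydrolyses dCTP and modified relatives, was at 121, 129 and 83.8 in untreated and 87.3, 91.7 and 90.3 in treated Jurkat, and 131, 128 and 139.6 in untreated and 98.7, 93.4 and 96 in treated Molt-4. Untreated Jurkat replicate 3, at 83.8, lay below the treated libraries and the other 2 untreated ones above them. The change was -0.28 ± 0.12 (adjusted p = 0.066) with it and -0.47 (adjusted p = 1.18e-05) without it, and in Molt-4 -0.46 ± 0.12 (adjusted p = 0.0054).

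SAMHD1, which breaks deoxynucleoside triphosphates down again, went the other way in Molt-4. Its FPKM was 3.35, 3.36 and 3.64 in untreated Molt-4 and 5.85, 6.11 and 5.67 in treated Molt-4, and it rose by 0.63 ± 0.080 (adjusted p = 2.78e-05), to 170.3% of the untreated mean. After quantile normalization the rise was 0.21 (adjusted p = 0.0423). In Jurkat it was close to 0, at 0.010, 0.030 and 0.030 without and 0.10, 0.11 and 0.050 with the drug, where the filter would not have kept it. Its exons overlap those of TLDC2 on the opposite strand, as those of TYMS overlap ENOSF1, those of GART overlap SON and those of DCTPP1 overlap ZNF771. ADSL and RRM2 share 204 and 159 exon bases on the same strand with protein-coding genes that carry only clone names. Whether strand was used in counting is not given in the sources used here, so reads from bases shared with an opposite-strand partner cannot be assigned. For the same-strand partners of ADSL and RRM2, strand would not separate such reads. The overlaps were read from a GRCh38 annotation, another build than that of the values.

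The 4 salvage genes divided: 3 fell and 1 rose in Jurkat (median -0.45), and 1 fell and 1 rose in Molt-4 (median -0.04). TK1, the thymidine kinase of S phase, had an FPKM of 31, 32.1 and 31.4 in untreated and 36.5, 33.6 and 38 in treated Jurkat, and 88.5, 84.6 and 86 in untreated and 115, 127 and 129 in treated Molt-4. All treated libraries were higher than all untreated ones in both lines, by 0.19 ± 0.060 (adjusted p = 0.0187) in Jurkat and 0.51 ± 0.060 (adjusted p = 1.4e-05) in Molt-4, or 114% and 143% of the untreated mean. The Jurkat call was lost without untreated replicate 1 (0.18, adjusted p = 0.0532), treated replicate 1 (0.18, adjusted p = 0.0568) or treated replicate 3 (0.15, adjusted p = 0.0791).

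HPRT1, which salvages hypoxanthine and guanine, stood at 86, 89 and 75.5 in untreated and 58.5, 49.1 and 44.1 in treated Jurkat, and 61, 66.4 and 65.7 in untreated and 70.1, 64.4 and 68.5 in treated Molt-4. It fell by 0.72 ± 0.094 in Jurkat (adjusted p = 4.04e-05), where the groups did not overlap, and in Molt-4, where they did, the change was 0.07 ± 0.094 (adjusted p = 0.54). APRT, which salvages adenine, was at 278, 275 and 245 in untreated and 161, 157 and 173 in treated Jurkat, and 198, 194 and 196 in untreated and 159, 164 and 161 in treated Molt-4. It fell by 0.70 ± 0.055 (adjusted p = 5.64e-07) and by 0.28 ± 0.055 (adjusted p = 0.000782), with no overlap in either line. DCK, which phosphorylates deoxycytidine and activates nucleoside drugs such as cytarabine, had mean FPKM of 60.2 ± 5.85 and 51.8 ± 1.4 in Jurkat (-0.21 ± 0.069, adjusted p = 0.0219). In Molt-4 it was at 36.2 ± 0.47 and 32.5 ± 1.71 (-0.15 ± 0.069, adjusted p = 0.0754). Its Jurkat call was lost without untreated replicate 3 (given above), treated replicate 2 (adjusted p = 0.0599) or treated replicate 3 (adjusted p = 0.0652), and under quantile normalization (a change of -0.10). In Molt-4 it was called without untreated Jurkat replicate 3, which enters the shared spread (-0.15, adjusted p = 0.0187). DCK was also called lower in Molt-4 when fitted without the Jurkat libraries and with median-of-ratios scaling.

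Which genes responded differently in the 2 lines was tested on the change in Molt-4 minus that in Jurkat. It was called for 15 of the 31 genes, higher in Molt-4 for 13 and lower for 2, CTPS2 and RRM2. SAMHD1 is among the 13. Both SAMHD1 and CTPS2 passed the filter only through Molt-4 and were at or near 0 in Jurkat, where little change could show. With a pseudocount of 0.1 neither was called. Over all genes tested 19.8% were called higher and 12.1% lower, and the medians were 0.26 for the nucleotide genes and 0.04 for all genes. Under quantile normalization 45.9% of the calls over all genes were higher, against 62.2% as deposited, and the nucleotide genes kept a median of 0.21.

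By role, the 13 were 4 of 8 purine synthesis genes, 4 of 5 of the IMP branch, CAD of pyrimidine synthesis, SAMHD1 of deoxynucleotide metabolism and 3 of 4 salvage genes. The largest difference was that of HPRT1, at 0.79 ± 0.13 (adjusted p = 0.000779), and ATIC followed at 0.73 ± 0.12 (adjusted p = 0.000614). PRPS2 stood at 0.54 ± 0.099 (adjusted p = 0.00139) and IMPDH2 at 0.54 ± 0.083 (adjusted p = 0.000413), with SAMHD1, given further on, between them. IMPDH1 stood at 0.52 ± 0.14 (adjusted p = 0.0136), APRT at 0.42 ± 0.077 (adjusted p = 0.00156) and GMPS at 0.37 ± 0.095 (adjusted p = 0.0112). In all of these but SAMHD1 the fall in Jurkat was the greater or was found in Jurkat alone by the test. For TK1 the difference of 0.33 ± 0.085 (adjusted p = 0.0118) came from a greater rise in Molt-4, and for RRM2 that of -0.29 ± 0.080 (adjusted p = 0.0158) from the fall in Molt-4.

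Smaller differences were less stable. Those of CAD (0.32 ± 0.094, adjusted p = 0.0223), PRPS1 (0.30 ± 0.098, adjusted p = 0.0373), GART (0.26 ± 0.078, adjusted p = 0.025) and GUK1 (0.23 ± 0.071, adjusted p = 0.027) each lost the call when single libraries were left out. For CAD these were untreated Jurkat replicate 2, treated Jurkat replicate 2 and treated Molt-4 replicates 2 and 3 (differences of 0.27 to 0.30, adjusted p of 0.0506 to 0.0565). GART and GUK1 lost it without untreated Jurkat replicates 1 or 2, treated Jurkat replicate 1, untreated Molt-4 replicate 1 or treated Molt-4 replicates 1 or 2 (adjusted p of 0.0525 to 0.0623 for GART and 0.0548 to 0.0720 for GUK1). PRPS1 kept it only without untreated Jurkat replicate 3 or untreated Molt-4 replicates 2 or 3, and otherwise its adjusted p was 0.0547 to 0.0883. With totals made equal without 7SL RNA none of the 4 was called (CAD 0.24, PRPS1 0.22, GART 0.18 and GUK1 0.15, adjusted p of 0.0669 to 0.107), nor were PRPS1 and GUK1 with median-of-ratios scaling (adjusted p = 0.0611 and 0.0585). Without untreated Jurkat replicate 3, 17 genes were called higher, PAICS (0.38, adjusted p = 0.000522), CTPS1 (0.58, adjusted p = 0.00346), PFAS (0.39, adjusted p = 0.0131) and ADSS (0.29, adjusted p = 0.0246) among them. CTPS1 was also called without untreated Molt-4 replicate 3 (0.52, adjusted p = 0.0396), and PFAS (0.36, adjusted p = 0.0480) and DHODH (0.55, adjusted p = 0.0453) without treated Jurkat replicate 3. The values of SAMHD1 (0.54 ± 0.11, adjusted p = 0.00319) and CTPS2 (-0.47 ± 0.11) set Molt-4 against Jurkat libraries at or near 0, and with a pseudocount of 0.1 in place of 1 neither was called (adjusted p = 0.680 and 0.0865).

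**Figure D4:**
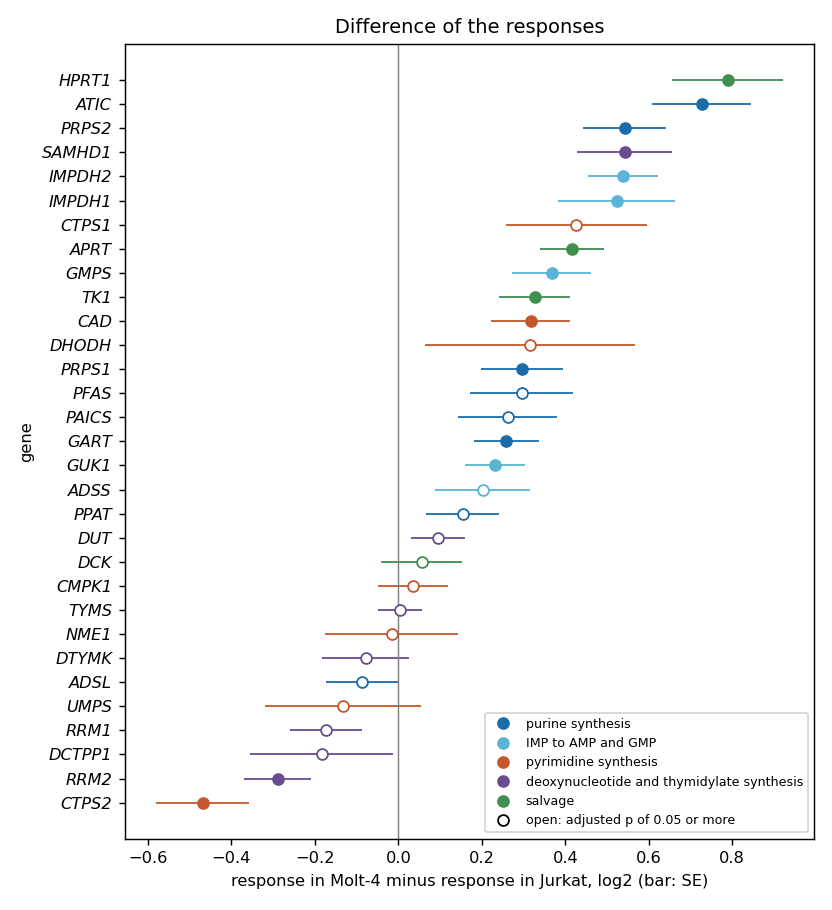
Log2 change in Molt-4 minus that in Jurkat for the 31 genes, with bars of 1 SE; filled points were called and open points were not. HPRT1 (0.79) and ATIC (0.73) lie at the upper end and CTPS2 (-0.47) and RRM2 (-0.29) at the lower end.

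Before treatment the lines already differed in many of these genes. Of the 31, 11 were higher and 11 lower in untreated Molt-4 than in untreated Jurkat, while 27.9% of all genes were called higher and 37.5% lower. The 11 higher include CTPS2 and SAMHD1, which passed the filter only through Molt-4, so their direction was given by the filter. The median was -0.08 for the nucleotide genes and -0.07 for all genes, and with median-of-ratios scaling it was 0.03 and 0.01. Under that scaling 12 were called higher and 8 lower, CAD (-0.17, adjusted p = 0.0520), CTPS1 (-0.29, adjusted p = 0.0551) and IMPDH1 (-0.17, adjusted p = 0.181) having lost the call, and 51.7% of the calls over all genes were higher, against 42.6% as deposited. Without untreated Jurkat replicate 3, 15 were called lower, with a median of -0.17, ADSL, ADSS, PAICS and PRPS1 having been added. Leaving CTPS2 and SAMHD1 aside, which Jurkat lacked or nearly lacked, the highest in Molt-4 were TK1 (274% of the Jurkat mean, 1.43 ± 0.060 (adjusted p = 7.68e-10)), CMPK1 (168%, 0.74 ± 0.060, adjusted p = 3.54e-07) and DTYMK (143%, 0.51 ± 0.074, adjusted p = 5.89e-05). The lowest were PRPS2 (38.8%, -1.34 ± 0.070, adjusted p = 5.83e-09), GUK1 (54.8%, -0.86 ± 0.051, adjusted p = 1.66e-08) and TYMS (57.2%, -0.80 ± 0.037, adjusted p = 1.82e-09). For each of these 6 the untreated libraries of the lines did not overlap, as the values above show.

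**Figure D5:**
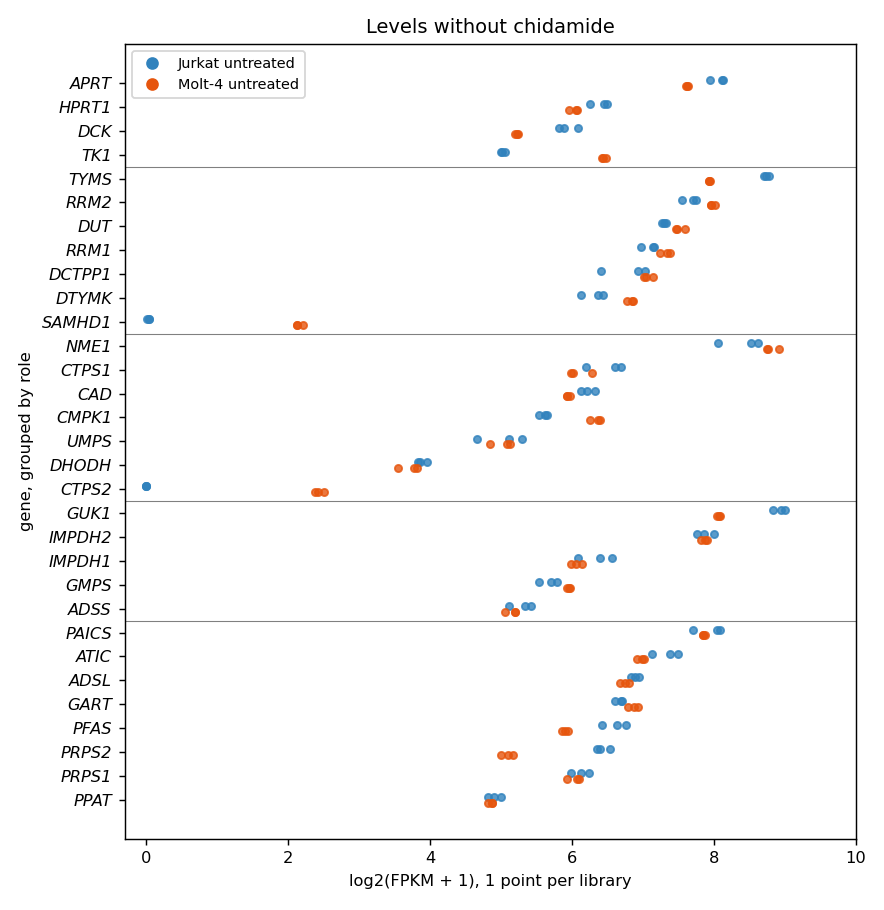
log2(FPKM + 1) of the 31 genes in each untreated library of Jurkat and Molt-4, with 1 point per library. GUK1, TYMS and NME1 are among the most abundant genes in both lines, and CTPS2 and SAMHD1 are at or near 0 in Jurkat.

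Genes next to these in the same metabolism were counted in lists. Folate enzymes and the folate carrier, which supply the one-carbon units of purines and dTMP, fell as well: 7 of 9 fell and 1 rose in Jurkat (median -0.72), and 6 of 9 fell in Molt-4 (median -0.46). MTHFD1L, a mitochondrial formate producer, went from 48.7 ± 8.14 to 13.6 ± 0.642 FPKM in Jurkat and from 44.1 ± 1.01 to 14.6 ± 1.17 in Molt-4. SLC19A1, the reduced folate carrier and importer of methotrexate, went from 50.1 ± 9.83 to 18.2 ± 1.88 and from 38.9 ± 2.98 to 17 ± 0.991.

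Genes of breakdown and interconversion showed no single direction. Expression of 18 of the 26 listed genes sufficed for the test, and 6 fell and 4 rose in Jurkat (median -0.20), while 6 fell and 6 rose in Molt-4 (median 0.04). The rises in Molt-4 include CDA, which passed the filter only through treated Molt-4, so its direction was given by the filter. ADA, adenosine deaminase, whose loss is toxic to lymphocytes, went from 884 ± 41.1 to 392 ± 8.39 FPKM in Jurkat (-1.17 ± 0.044, adjusted p = 1.37e-09) and from 576 ± 9.04 to 104 ± 2.6 in Molt-4 (-2.47 ± 0.044, adjusted p = 3.79e-12). PNP, the next enzyme of that route, rose from 96.5 ± 10.2 to 172 ± 5.53 and from 69.3 ± 2.78 to 115 ± 6.2. DCTD, which makes dUMP for TYMS, fell from 93.7 ± 11.4 to 33 ± 2.6 and from 57.4 ± 4.3 to 29.9 ± 1.2. GMPR, which turns GMP back to IMP, was listed at 0 in untreated Jurkat and at 4.52 ± 0.459 in treated Jurkat, and rose from 7.23 ± 1.21 to 39.7 ± 3.32 in Molt-4.

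Genes of proliferation and S phase, which use the products of these routes, fell in 13 of 17 cases and rose in 2 in Jurkat (median -0.34), and fell in 11 and rose in 2 in Molt-4 (median -0.41). Most of this list fell with chidamide in each line, as most nucleotide genes did, but the lines compared otherwise. The difference of the responses had a median of 0.07 here (3 higher and 4 lower), against 0.26 for the nucleotide genes. Between the untreated lines the median was 0.32 (11 higher and 2 lower in Molt-4), against -0.08. The part of cell cycle position in these changes was not tested. CDC45, a replication helicase factor, fell by 0.73 ± 0.066 in Jurkat (adjusted p = 1.95e-06) and by 0.56 ± 0.066 in Molt-4 (adjusted p = 1.54e-05). TOP2A, the topoisomerase of G2 and mitosis, rose by 0.55 ± 0.054 (adjusted p = 3.97e-06) and 0.20 ± 0.054 (adjusted p = 0.00661). PCNA, the sliding clamp of replication, fell from 228 ± 14.3 to 178 ± 0.551 FPKM in Jurkat and from 401 ± 4.76 to 265 ± 1.37 in Molt-4.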

How the data were processed

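RNA libraries were built with an Illumina TruSeq kit, per the labels' protocols. The authors deposited FPKM per gene and library. Per the submitters' processing notes, STAR, HTSeq, DESeq2 and the build hg19 were used; versions, order and how FPKM was obtained are not given in the sources used here. Without read counts a count test was not run. In a search for whole-read steps, at most 4.76% of low genes shared the commonest ratio of 2 libraries. The search used genes with values from 0.2 to 2 and left out lower ones, where single reads weigh most. It therefore cannot decide whether whole counts lie behind the values.

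From the deposited FPKM, log2(FPKM + 1) was fitted with 1 mean per group over all 12 libraries (limma 3.58.1 in R 4.3.3, lmFit and eBayes with trend, 8 residual degrees of freedom, two-sided p, Benjamini-Hochberg over 13840 genes per comparison). The model was tested on simulated data for treated against untreated Jurkat, in which 200 of 13840 genes were changed. Of 40 genes at each size it called 37 at a log2 change of -1 and 39 at 1, but only 20 at -0.5 and 21 at 0.5. It called 12 of 13640 unchanged genes. In the deposited values 4277 genes were called higher and 3509 lower in Jurkat, and with more calls the cutoff on the unadjusted p is less strict. These shares therefore do not give the power or the false calls of the tests reported here. A gene that was not called may still have changed. All members are named by role, with a value per library for those called at an absolute log2 change of at least 0.5, called in the difference, or among the 3 largest differences each way between untreated lines, and up to 4 called genes of each related list. DCTPP1 was added to these after its values were seen. The members, lists and tests were chosen with earlier results of these data known. Alternatives were other pseudocounts, filters and scalings, the groups compared alone, a replicate block, robust empirical Bayes, and each library left out in turn. RefSeq promoters are of GRCh38.p14, another build than that of the values, and were joined by symbol.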

Additional observations from a re-analysis of the deposited data

Results flagged for a closer look

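Groups of 3 libraries are too small for a test of single outlying samples, so none was made. The values given here are changes in Molt-4 minus changes in Jurkat on the log2(FPKM + 1) scale, and each was picked out because the test of that difference was called. In purine synthesis these were ATIC at 0.73, PRPS2 at 0.54, PRPS1 at 0.30 and GART at 0.26. In the IMP branch they were IMPDH2 at 0.54, IMPDH1 at 0.52, GMPS at 0.37 and GUK1 at 0.23. Pyrimidine synthesis gave CAD at 0.32 and CTPS2 at -0.47, the latter with Jurkat listed at 0. Deoxynucleotide metabolism gave SAMHD1 at 0.54, with Jurkat near 0, and RRM2 at -0.29. Among the salvage genes HPRT1 stood at 0.79, APRT at 0.42 and TK1 at 0.33.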

How the results depend on the processing

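No called value changed sign under any of the 21 alternatives (20 for the difference of the responses, which the groups compared alone cannot give). Calls kept under every alternative that was run numbered 23 of 27 in Jurkat, 24 of 26 in Molt-4, 9 of 15 for the difference and 18 of 22 between the untreated lines, and 3, 2, 6 and 5 genes were called under at least 1 alternative only. Quantile normalization called 2678 genes lower in the difference, against 1671. The count of nucleotide genes higher in Jurkat, 1 as reported, was 2 with a pseudocount of 0.1 (SAMHD1 added) and 2 under quantile normalization (RRM2 added), and ranged from 0 to 1 with single libraries left out. The count lower in the difference, 2 as reported, was 1 with a pseudocount of 0.1 and 1 with an FPKM of at least 5 in 3 libraries, where CTPS2 was not tested; RRM1 made it 3 under quantile normalization and 3 with equal totals. Other counts stayed within 1.5 times. Without untreated Jurkat replicate 3, NME1 was higher in untreated Molt-4 by 0.23 in place of 0.40, and without replicate 1 IMPDH1 was at -0.17 in place of -0.28 there and no longer called (adjusted p = 0.111). IMPDH1 also lost that call without untreated Jurkat replicate 2 and untreated Molt-4 replicates 2 or 3 (adjusted p of 0.0582 to 0.0807), and DCTPP1 was called higher there without untreated Jurkat replicate 1 (0.35) or 2 (0.40). After quantile normalization the Jurkat changes of ADSL and RRM1 were -0.23 and -0.27, in place of -0.37 and -0.40, and still called.

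With the replicate number as a block (replicate block), 26 nucleotide genes were called lower and 1 higher in Jurkat, 23 lower and 2 higher in Molt-4 (DUT lost the call, adjusted p = 0.0514), 13 higher and 2 lower in the difference, and 11 each way between the untreated lines. Over all genes, 4207 were called higher and 3473 lower in Jurkat and 4844 and 3353 in Molt-4. Deviations of libraries with the same number correlated between -0.086 and 0.041 over 18 pairs, so the numbers were not taken to pair the samples. FPKM without read counts leaves the precision of low values such as those of SAMHD1 in Jurkat unknown. The cause of these changes was not tested.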

Other observations

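Among other genes that handle nucleotides, some differed in their response between the lines by more than any of the 31 nucleotide genes. ADA, given above, had the lower response in Molt-4, with a difference of -1.29 ± 0.062 (adjusted p = 4.965e-08). SLC29A1, NME4 and CMPK2 had the higher response there. SLC29A1, the equilibrative transporter that also carries nucleoside drugs, went from 133 ± 22.8 to 46.8 ± 1.95 FPKM in Jurkat (-1.48 ± 0.099, adjusted p = 1.52e-07) and from 75.9 ± 3.52 to 80.8 ± 1.75 in Molt-4 (0.09 ± 0.099, adjusted p = 0.452), a difference of 1.57 ± 0.14 (adjusted p = 6.02e-06). NME4, a mitochondrial nucleoside diphosphate kinase, fell from 215 ± 18 to 61 ± 5.96 in Jurkat and was at 171 ± 6.57 and 181 ± 7.85 in Molt-4, a difference of 1.89 ± 0.11 (adjusted p = 1.58e-07). CMPK2, a mitochondrial UMP-CMP kinase known as an interferon-induced gene, rose from 13.3 ± 0.708 to 58.7 ± 0.327 in Molt-4 and went from 22.9 ± 2.94 to 19.3 ± 1.66 in Jurkat (-0.23 ± 0.089, adjusted p = 0.0427), a difference of 2.29 ± 0.13 (adjusted p = 1.31e-07).

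Of 18 other kinases tested 9 fell and 3 rose in Jurkat, and 6 fell and 5 rose in Molt-4. Of 7 genes that clear damaged nucleotides 3 fell and 2 rose in Jurkat and 4 fell and 1 rose in Molt-4, with ITPA at -0.78 ± 0.095 (adjusted p = 2.26e-05) and -0.78 ± 0.095 (adjusted p = 1.96e-05). Of 4 transporters tested 1 fell and 2 rose in Jurkat and 1 rose in Molt-4. Of 3 regulators and relatives of PRPP and adenylosuccinate synthesis 1 fell and 2 rose in Jurkat and 1 rose in Molt-4. CDA, cytidine deaminase, was listed at 0 in untreated Molt-4 and at 3.0 ± 0.493 FPKM in treated Molt-4. It passed the filter only through that treated group, so the direction of its change was given by the filter.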
